A study of Sorghum bicolor with 24 samples.

Results

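The 6 sucrose transporter genes of sorghum, SUT1 to SUT6, were followed through the cell types of the stem. They were taken by identifier from a table of 34117 genes, and all 6 were found: Sobic.001G488700 (SUT1), Sobic.004G353600 (SUT2), Sobic.001G254000 (SUT3), Sobic.008G193300 (SUT4), Sobic.004G190500 (SUT5) and Sobic.007G214500 (SUT6). The choice was by identifier and not by level, although earlier results of these data were known. The plants were Sorghum bicolor cv. Wray, a cultivar with a sugar-rich stem, grown in a greenhouse under 14-h days with ample water and sampled at 74 days in the vegetative phase. All groups came from the internode at phytomer 8, the last one to have finished elongating, of 4 plants. Phloem, xylem sclerenchyma, vascular parenchyma, pith parenchyma and epidermis were cut from 20 µm frozen sections with a laser, a method called laser capture microdissection, and whole stem of the same internodes was sequenced without capture. Each of these 6 groups had 4 biological replicates, 24 libraries in all, and the labels do not say whether a replicate number marks the same plant in every group. The sample labels say vascular parenchyma where the collection protocol lists xylem parenchyma, and the name vascular parenchyma is used here.

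Sucrose transporters are membrane proteins that move sucrose together with a proton. In grasses sucrose made in leaves travels in the phloem to the stem, where sweet-stemmed sorghums store it in the vacuoles of parenchyma cells. In maize, SUT1 loads sucrose into the phloem of the leaf, and SUT2 lies in the vacuolar membrane, through which it lets sucrose out of the vacuole. Roles in sorghum were not assumed for any of the 6 genes. Maize and sorghum genes were not matched here, so a shared number, such as SUT2, need not mark the same gene in both. Levels are printed as CPM, the number of counts of a gene in every 1e6 counts of its library. Because no gene lengths were used, CPM was compared between groups within a gene and never between genes.

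Depth set limits that differ between libraries. Totals ran from 2769555 to 38880291 counts in the 20 captured libraries and from 16189208 to 29605470 in whole stem. In phloem, replicates 1 and 2 held at most 3658511 counts and replicates 3 and 4 at least 27471101. Epidermis replicates 1 and 2 and phloem replicate 3 stood apart, with 10439 to 11021 genes above 1 CPM against 13378 to 17125 in the other 17 captured libraries. The captured types were not checked against marker genes, because the identifiers were not paired with gene names here. In tissue samples fewer cells of a type and less RNA per cell cannot be told apart, so a level here is a share of the RNA of a sample.

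SUT1 was highest in the vascular tissues. In phloem its level was 4173, 5001, 2862 and 3847 CPM in replicates 1 to 4, a mean of 3971 ± 884 (SD, n = 4). Vascular parenchyma followed with 2768, 2787, 1811 and 3434 CPM, a mean of 2700.0 ± 669 (SD, n = 4). The phloem and vascular parenchyma libraries overlapped. Xylem sclerenchyma held 789.9, 1751, 122 and 802 CPM, a mean of 866 ± 670.1 (SD, n = 4). All 4 xylem sclerenchyma libraries lay below every phloem and every vascular parenchyma library, and the highest of them was 14.4 times the lowest. How many of all genes separate fully between groups was not counted, here or below.

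Outside the vascular tissues SUT1 was scarce. Pith parenchyma held 23.9, 13.4, 40.5 and 36.6 CPM, a mean of 28.6 ± 12.4 (SD, n = 4). Epidermis had 0 counts of SUT1 in replicates 1, 2 and 3 and 273 counts, or 8.17 CPM, in replicate 4. The first 3 of these libraries set a limit of 0.309, 0.285 and 0.0772 CPM, the level that 3 counts would give. The order of the captured types by mean SUT1 level was thus phloem, vascular parenchyma, xylem sclerenchyma, pith parenchyma and epidermis. Only phloem and vascular parenchyma overlapped among neighbours in this order.

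**Figure D1:**
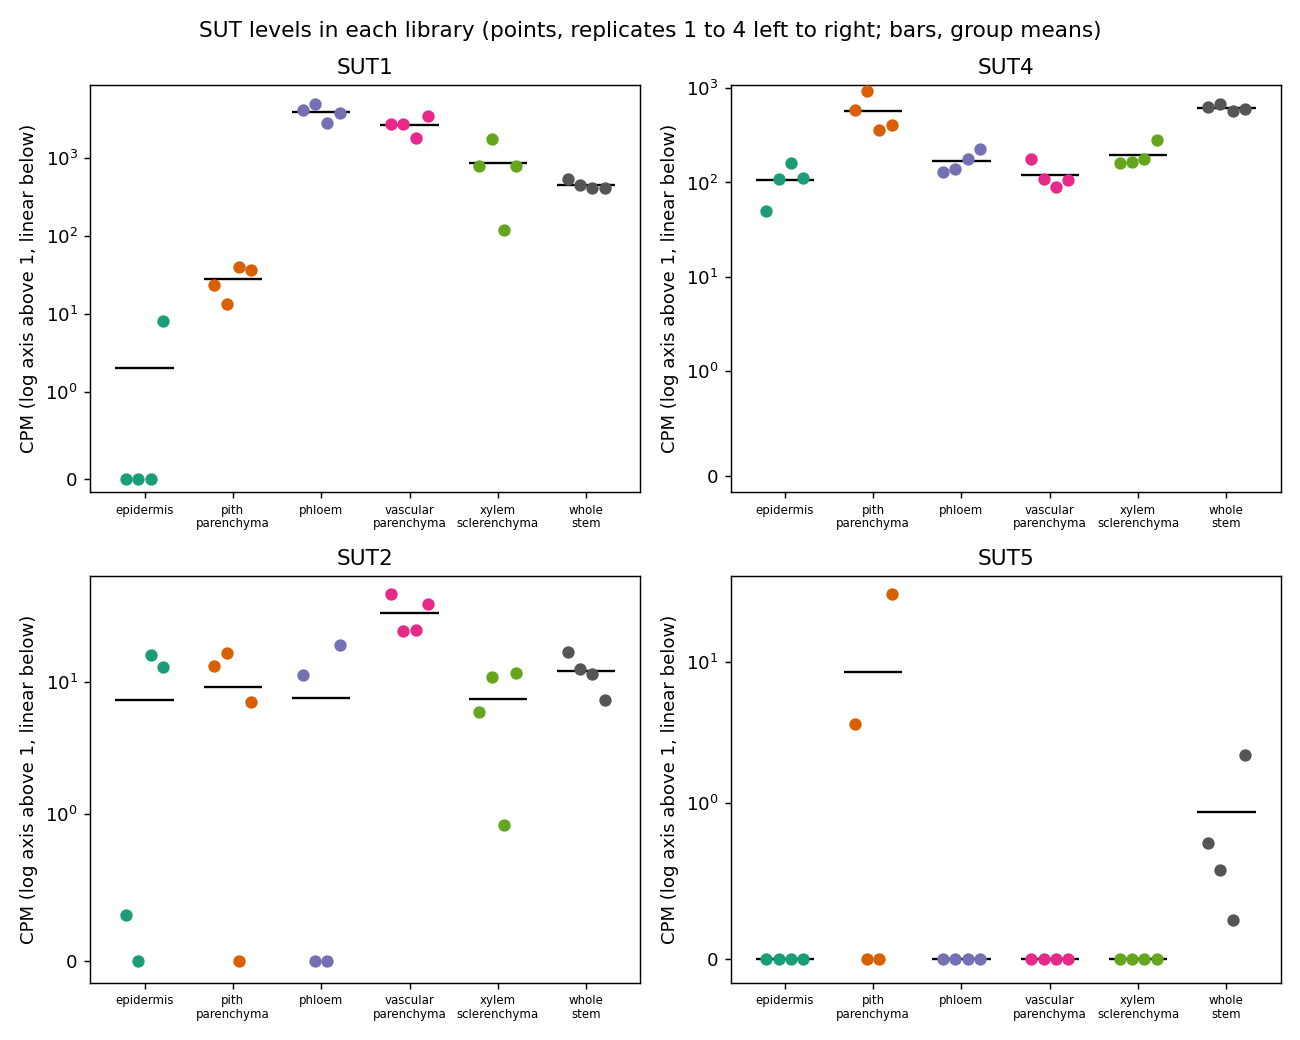
Levels of SUT1, SUT4, SUT2 and SUT5 in CPM (vertical axis, logarithmic above 1 and linear below) in the 4 libraries of each group (points, replicates 1 to 4 from left to right), with group means as bars. SUT1 is highest in phloem and vascular parenchyma, SUT4 in pith parenchyma and whole stem, SUT2 in vascular parenchyma, and SUT5 is at 0 in all libraries of 4 captured types.

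Differences among the captured types were tested over the 20 captured libraries in edgeR (quasi-likelihood F test), and p-values were adjusted by Benjamini-Hochberg over all 19502 genes tested. Across the 5 types, 2 of the 3 tested transporters differed at an adjusted p under 0.05, SUT1 (adjusted p = 0.00108) and SUT4 (adjusted p = 0.000496). Of all genes tested, 16.0% passed the same threshold. Ordered by p, SUT4 stood at place 430 and SUT1 at place 560. SUT2 was tested and did not pass (adjusted p = 0.842), and SUT3, SUT5 and SUT6 had too few counts to be tested.

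In pairs of types a gene was called when its adjusted p was under 0.05 and its log2 fold change at least 1 in size. SUT1 was lower in epidermis than in phloem by a log2 fold change of -10.75 (SE 1.81, adjusted p = 0.00141 in edgeR's test). It was also lower in epidermis than in vascular parenchyma, at -10.36 (SE 1.78, adjusted p = 0.00145), and than in xylem sclerenchyma, at -8.61 (SE 1.67, adjusted p = 0.00538). With 3 epidermis libraries at 0, the size of these values rests on epidermis replicate 4, and without it they were fitted at -18.92, -18.54 and -16.74. On the scale of group means, phloem was 1943-fold above epidermis. Of 3 transporters tested, 1 was called in each of these contrasts, where the background over all genes was 8.59% against phloem, 10.2% against vascular parenchyma and 5.6% against xylem sclerenchyma.

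Pith parenchyma also differed from the inner vascular tissues. SUT1 was lower there than in phloem by a log2 fold change of -7.08 (SE 1.56, adjusted p = 0.013) and than in vascular parenchyma by -6.68 (SE 1.53, adjusted p = 0.014), both by edgeR's test. The ratios of group means were 139 and 94.5. Without pith parenchyma replicate 1 both calls were lost, at adjusted p = 0.0513 and 0.0544, and without pith parenchyma replicate 4 the latter was lost at 0.0515, although the log2 fold changes stayed within -7.32 to -6.43 over all omissions of 1 library. With SUT4 (below), 2 of 3 tested transporters were called in each of these contrasts, against 5.52% of all genes for phloem and 7.17% for vascular parenchyma.

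Other SUT1 contrasts were not called. Against xylem sclerenchyma, pith parenchyma had a log2 fold change of -4.94 with a 95% interval of -7.91 to -1.96 (adjusted p = 0.0681), although the libraries did not overlap. This contrast was called when any 1 of the 4 epidermis libraries was left out of the fit, at adjusted p = 0.0388, 0.0363, 0.0313 and 6.96e-05 for replicates 1 to 4. Epidermis against pith parenchyma gave -3.67 (interval -6.49 to -0.86, adjusted p = 0.184), and without epidermis replicate 4, the library that held SUT1 counts, it gave -11.71 with an adjusted p of 3.7e-06. Between the vascular types, SUT1 differed by 0.39 for phloem minus vascular parenchyma (interval -2.13 to 2.91), by 2.14 for phloem minus xylem sclerenchyma (-0.49 to 4.76) and by 1.74 for vascular parenchyma minus xylem sclerenchyma (-0.85 to 4.34). These 3 contrasts called 0 of 3 tested transporters by edgeR, and 0 also at an unadjusted p under 0.05. The background of calls among all genes there was 0.174%, 0.487% and 0.0308%. At an unadjusted p under 0.05 by edgeR it was 1870, 1988 and 1959 of 19502 genes.

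The choice of test mattered for SUT1. With limma voom and sample quality weights, the adjusted p across the 5 types was 0.262, and the 3 epidermis contrasts lost their calls at 0.104, 0.115 and 0.246, with log2 fold changes of -14.62, -14.16 and -11.86 that were larger in size than those of edgeR. The same method called SUT1 higher in phloem than in xylem sclerenchyma (log2 fold change 2.76, adjusted p = 0.00182) and higher in vascular parenchyma than in xylem sclerenchyma (2.31, adjusted p = 0.0072). DESeq2 called all the contrasts that edgeR called for SUT1. It added pith parenchyma against epidermis and against xylem sclerenchyma, at adjusted p = 0.016 and 0.000347.

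SUT4 was detected in all 24 libraries and was highest, among the captured types, in pith parenchyma. In pith parenchyma it reached 592, 934, 362 and 405 CPM, a mean of 573 ± 260.2 (SD, n = 4). Xylem sclerenchyma held 162, 164, 178 and 279 CPM (mean 196 ± 55.8, SD, n = 4), and phloem 129, 138, 179 and 227 CPM (168 ± 44.8). Every pith parenchyma library exceeded every one of the 16 libraries from elsewhere in the captured stem.

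The remaining types had the lowest SUT4 levels. Vascular parenchyma held 178, 109, 89.6 and 107 CPM (mean 121 ± 38.8, SD, n = 4), and epidermis 50.4, 108, 160.4 and 111 CPM (107 ± 45.0). From xylem sclerenchyma down to epidermis, each type overlapped with the next in order. Xylem sclerenchyma did not overlap with epidermis, the type at the other end of that order. In pith parenchyma the 4 libraries had the inverse order for SUT1 and SUT4: replicate 2 had the most SUT4 and the least SUT1, replicate 3 the reverse. With 4 libraries this order was not tested.

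SUT4 was called in 4 contrasts, all of them with pith parenchyma on the high side. Epidermis was below pith parenchyma by a log2 fold change of -2.28 (SE 0.39, adjusted p = 0.00185 in edgeR's test), where 1 of 3 tested transporters and 2.55% of all genes were called. Pith parenchyma exceeded phloem by 1.77 (SE 0.38, adjusted p = 0.009) and vascular parenchyma by 2.08 (SE 0.39, adjusted p = 0.00234). Both calls held in all 20 omissions of 1 library. Within replicates 1 and 2, the shallower libraries in 4 of the 5 types, the contrast with phloem was 2.43, and within replicates 3 and 4 it was 0.88, neither called. The contrast with vascular parenchyma was 2.18 and 1.72 in these sets, again without a call in either. For epidermis minus pith parenchyma the values were -3.16 and -1.34, the latter not called. Leaving out epidermis replicates 1 and 2 and phloem replicate 3 together gave 1.82 against phloem and -1.89 for epidermis minus pith parenchyma, both still called.

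The contrast with xylem sclerenchyma was less firm. Pith parenchyma exceeded it by 1.46 (SE 0.38, adjusted p = 0.0386 in edgeR's test), the only called transporter of 3 tested, with 2.89% of all genes called. The call was lost in 12 of 20 omissions of 1 library, with adjusted p between 0.0504 and 0.151. These were epidermis replicates 3 and 4, phloem replicates 1, 3 and 4, pith parenchyma replicates 1, 2 and 4, and all 4 xylem sclerenchyma libraries. Within replicates 1 and 2 the value was 2.14 and within replicates 3 and 4 it was 0.52. Among the other 4 types, the log2 fold changes of SUT4 ran from -0.83 for epidermis minus xylem sclerenchyma (interval -1.60 to -0.05, adjusted p = 0.209) to 0.31 for phloem minus vascular parenchyma (-0.46 to 1.09), and none was called.

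SUT4 had the lowest biological coefficient of variation of the tested transporters. This value, the spread between replicates that edgeR estimates over all captured types, was 0.456, compared with 1.18 for SUT1, 1.60 for SUT2 and a median of 1.25 over all tested genes. Only 3.89% of genes had a lower one. Within a type the coefficient of variation of CPM was not always lower for SUT4: it was 26.6% against 22.3% for SUT1 in phloem, 32.1% against 24.8% in vascular parenchyma and 45.4% against 43.3% in pith parenchyma. SUT4 was also the single transporter with fractional counts, which it had in all 24 libraries. Of all genes, 25.2% had a fractional value in at least 1 library. Salmon gives such values when it divides reads among transcripts, and how reads of SUT4 were shared with other sequences is not given in the sources used here, so its level carries that uncertainty.

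**Figure D2:**
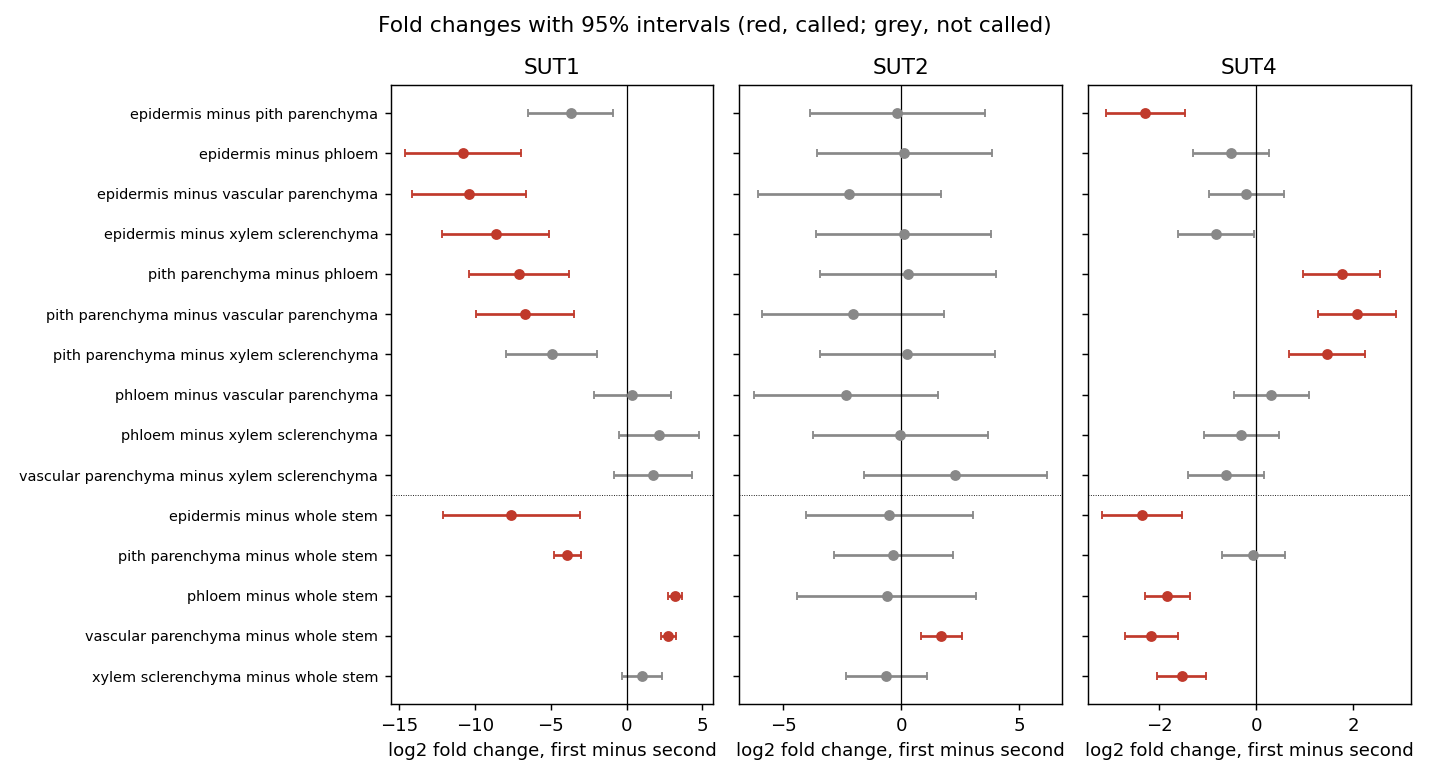
Log2 fold changes with 95% intervals (horizontal axis) for SUT1, SUT2 and SUT4 in the 10 contrasts between captured types and, under the dotted line, the 5 contrasts with whole stem (edgeR, first group minus second). Red marks called contrasts: SUT1 is low in epidermis and pith parenchyma, SUT4 is high in pith parenchyma, and the SUT2 intervals between types all include 0.

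SUT2 was low and uneven. Its highest level was in vascular parenchyma, at 46.0, 24.1, 24.4 and 38.6 CPM, a mean of 33.3 ± 10.8 (SD, n = 4). No library of the other captured types reached the lowest of these. Pith parenchyma held 13.2, 16.3, 0 and 6.99 CPM, phloem 11.2, 0, 0 and 18.8, xylem sclerenchyma 5.84, 10.9, 0.923 and 11.7, and epidermis 0.309, 0, 15.8 and 12.9.

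The means of these 4 types lay between 7.24 and 9.13 CPM and their libraries overlapped throughout. SUT2 was at 0 in 4 libraries, epidermis replicate 2, phloem replicates 2 and 3 and pith parenchyma replicate 3, which differ in depth. Phloem replicate 3, with 0 counts, had a limit of 0.109 CPM, while replicate 4 held 570 counts. The 10 contrasts between types gave log2 fold changes from -2.33 to 2.30, and none was called by edgeR (adjusted p from 0.545 to 1). For phloem minus vascular parenchyma the interval was -6.22 to 1.57, so the test did not bound the difference closely.

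SUT5 was detected in pith parenchyma and whole stem and in no other group. Pith parenchyma replicate 1 held 45 counts (3.61 CPM) and replicate 4 held 389 (30.5 CPM), while replicates 2 and 3 had 0. Whole stem held 0.741, 0.57, 0.249 and 2.20 CPM, from 12, 14, 7 and 65 counts. In the 16 libraries of epidermis, phloem, vascular parenchyma and xylem sclerenchyma no count was assigned to SUT5. Over the 4 libraries of each type together, 3 counts would be 0.0324, 0.0467, 0.0385 and 0.0437 CPM, and pooled whole stem was at 0.996 CPM.

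Too few counts kept SUT5 out of the test across types. Against the limit of 3 counts per library, the mean of pith parenchyma was at least 44.9-fold higher than epidermis, 16.2-fold higher than phloem, 51.0-fold higher than vascular parenchyma and 29.4-fold higher than xylem sclerenchyma. Replicate 4 gave 389 of the 434 pith parenchyma counts behind these bounds, and 2 of the 4 libraries were at 0 themselves. With no filter on low counts, SUT5 passed the test across types at an adjusted p of 0.0356 by edgeR's test. With the filter kept and epidermis replicates 1 and 2 and phloem replicate 3 left out, SUT5 entered the test and did not pass (adjusted p = 0.0728). In the comparison of pith parenchyma with whole stem it was tested and not called (log2 fold change 3.31, interval -1.19 to 7.80, adjusted p = 0.498). Without pith parenchyma replicate 4 the value was 0.39 (adjusted p = 0.955), the lowest over omissions of 1 library, and the highest was 3.73.

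SUT3 and SUT6 were at the edge of detection. SUT3 had 3 counts in all 24 libraries together, 1 in epidermis replicate 2 and 2 in whole stem replicate 3. SUT6 had 1 count, in vascular parenchyma replicate 1. Neither reached 3 counts in any library, so their presence in these tissues was not detectable at this depth.

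Whole stem, which contains all of these tissues, was compared with each captured type in a separate fit of 8 libraries. It was not laser captured, so tissue and capture cannot be told apart in these contrasts. Whole stem had 18421 to 18799 genes above 1 CPM, against at most 17125 in the captured libraries. The 5 fits share the whole stem libraries. Whole stem held 538, 453, 421 and 415 CPM of SUT1 (mean 457 ± 56.7, SD, n = 4) and 635, 671, 573 and 606 CPM of SUT4 (621 ± 42.0). Its SUT2 level was 16.8, 12.5, 11.4 and 7.19 CPM (12.0 ± 3.95). The whole stem replicates lay closer together than those of any captured type for SUT1 and SUT4, with coefficients of variation of 12.4% and 6.77%.

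In phloem SUT1 was above whole stem by a log2 fold change of 3.17 (SE 0.21, adjusted p = 0.000179 in edgeR's test) and SUT4 below it by -1.83 (SE 0.20, adjusted p = 0.00125). That made 2 of 3 tested transporters called, against 13.4% of all genes. Vascular parenchyma was the comparison in which all 3 tested transporters were called, against 19.7% of all genes. SUT1 was higher there by 2.76 (SE 0.22, adjusted p = 0.00039), SUT2 higher by 1.69 (SE 0.38, adjusted p = 0.013) and SUT4 lower by -2.16 (SE 0.24, adjusted p = 0.00115), all by edgeR's test. All 4 vascular parenchyma libraries lay above the 4 whole stem libraries for SUT1 and SUT2 and below them for SUT4. The share of all genes that separate fully in this pair was not counted. Vascular parenchyma against whole stem was the only called contrast of SUT2. In a single fit over all 24 libraries it was at 1.65 and lost its call (adjusted p = 0.768), as did SUT1 in phloem, vascular parenchyma and pith parenchyma against whole stem, at adjusted p of 0.163, 0.191 and 0.173. Their log2 fold changes in that fit were 3.23, 2.72 and -3.93.

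In xylem sclerenchyma SUT4 was below whole stem by -1.53 (SE 0.22, adjusted p = 0.0108 in edgeR's test). SUT1 was at 1.00 (interval -0.33 to 2.33, adjusted p = 0.399) and its libraries overlapped with whole stem, so 1 of 3 tested transporters was called, against 9.32% of all genes. Without xylem sclerenchyma replicate 3, at 122 CPM, SUT1 was higher by 1.38 with an adjusted p of 0.0262.

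Pith parenchyma was the captured type whose SUT4 level lay nearest to whole stem. The log2 fold change was -0.06 with an interval of -0.71 to 0.59 (adjusted p = 0.959 in edgeR's test), and the libraries overlapped. SUT1 was lower in pith parenchyma than in whole stem by -3.91 (SE 0.39, adjusted p = 0.0103), the 1 call among 4 tested transporters, with 4.58% of all genes called. That call was lost without whole stem replicate 1, 2 or 3, at adjusted p of 0.0642, 0.0816 and 0.0733.

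Epidermis was below whole stem for SUT1, by -7.58 (SE 1.98, adjusted p = 0.0366 in edgeR's test), and for SUT4, by -2.35 (SE 0.36, adjusted p = 0.00604). These were 2 calls among 3 tested transporters, against 12.6% of all genes. The SUT1 call was lost without epidermis replicate 2 or any 1 of the whole stem libraries, at adjusted p of 0.0527 to 0.0765. Without epidermis replicate 4, and so with SUT1 at 0 in every epidermis library left, the fitted value was -16.24. With no filter on low counts, SUT5 was called below whole stem in epidermis, phloem, vascular parenchyma and xylem sclerenchyma, at adjusted p of 0.0232, 0.0382, 0.0196 and 0.0391 by edgeR's test. With the filter kept, SUT5 entered these tests when a library of the captured type or whole stem replicate 3 was left out. It was then called at adjusted p of 0.0183 to 0.0479, except in phloem without replicate 4 (adjusted p = 0.0566). SUT5 had 0 counts in all these captured types, so it passed the filter only through whole stem, and these calls are no separate support. In a single fit over 24 libraries with the filter it was tested and not called, at adjusted p of 0.148 to 0.303.

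The ratio of SUT1 to SUT4 counts within a library does not depend on how libraries are scaled, and gene length cancels when it is compared between groups. This measure was chosen after the values had been seen. It was taken as log2 of the ratio after adding 0.5 counts to each gene. The mean was 4.57 ± 0.61 (SD, n = 4) for phloem and 4.49 ± 0.45 for vascular parenchyma, with xylem sclerenchyma lower at 1.67 ± 1.67. It was -0.45 ± 0.15 in whole stem, -4.34 ± 1.34 in pith parenchyma and -9.61 ± 4.19 in epidermis, where the 3 libraries without SUT1 counts take their value from the added 0.5.

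Because the ratio was chosen for the contrast already seen between the genes, it is given as a description with no test. In 12 of the 15 pairs of groups the libraries did not overlap in this ratio. How often the ratios of other genes separate in this way was not counted. Phloem exceeded xylem sclerenchyma by 2.90 and vascular parenchyma exceeded it by 2.83 on the log2 scale. Without xylem sclerenchyma replicate 3, whose log2 ratio of -0.55 was the only negative one among the vascular libraries, these differences were 2.16 and 2.09.

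Overlap remained in the other 3 pairs. Phloem minus vascular parenchyma was 0.07, xylem sclerenchyma minus whole stem was 2.12 and epidermis minus pith parenchyma was -5.27. In epidermis replicate 4, the only epidermis library with SUT1 counts, the log2 ratio of -3.76 lay within the range of pith parenchyma.

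**Figure D3:**
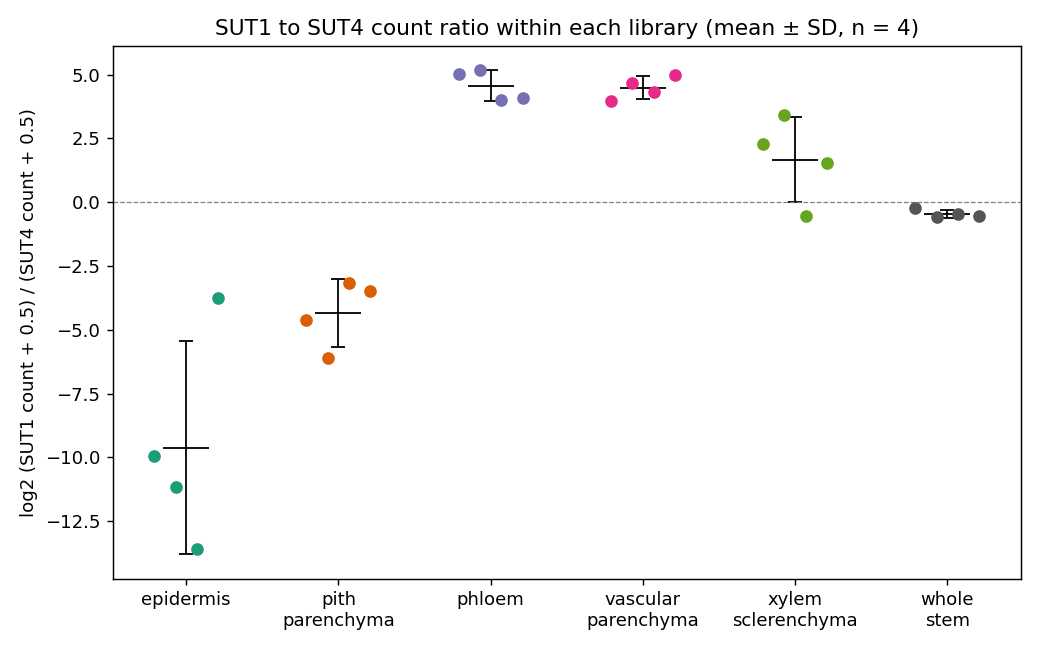
Log2 ratio of SUT1 to SUT4 counts in each library (vertical axis, 0.5 counts added to each gene), with the group mean and SD (n = 4). Phloem and vascular parenchyma lie between 3.96 and 5.17, whole stem between -0.57 and -0.24, and pith parenchyma between -6.12 and -3.16.

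Genes with a pattern like that of a transporter were ranked by Pearson's correlation of log2 CPM over all 24 libraries, among 19969 genes, and the top 2 are named. The libraries of a group share their tissue, so these values are a description. For SUT1 they were Sobic.001G032000 (r = 0.98) and Sobic.002G330300 (r = 0.96). The former had means of 283 ± 124 CPM (phloem), 148 ± 108 CPM (vascular parenchyma), 50.4 ± 26.8 CPM (xylem sclerenchyma) and 2.62 ± 2.08 CPM (pith parenchyma), each with SD and n = 4. It repeated the order of SUT1 and, like SUT1, had its lowest vascular library in xylem sclerenchyma replicate 3, at 11.5 CPM. Sobic.002G330300 did not repeat the order, with means of 199 CPM in vascular parenchyma, 177 in phloem, 120 in xylem sclerenchyma and 48.2 in pith parenchyma. With Spearman's correlation this gene (0.96) and all genes named below for SUT2, SUT4 and SUT5 left the top 2.

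For SUT4 the nearest genes were Sobic.009G005900 and Sobic.010G175100 (r = 0.89 each). Sobic.009G005900 was at 1633 ± 157 CPM in pith parenchyma and 1515 ± 95.7 in whole stem, and at means of 394 to 581 CPM in the other 4 types. Sobic.010G175100 was at 58.9 ± 44.8 CPM in pith parenchyma and 51.6 ± 13.4 in whole stem, and at means of at most 4.17 CPM elsewhere (SD, n = 4). As for SUT4, pith parenchyma and whole stem were the high groups of both genes.

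The lists for SUT2 and SUT5 were led by genes that share libraries at 0 with them. For SUT2 these were Sobic.001G150800 (r = 0.91) and Sobic.001G411500 (r = 0.87), whose Spearman correlations with it were 0.68 and 0.59. Both were at 0 in phloem replicates 2 and 3 and pith parenchyma replicate 3, where SUT2 was at 0. For SUT5 they were Sobic.004G326500 (r = 0.98) and Sobic.004G227900 (r = 0.96). Both were also highest in pith parenchyma replicates 1 and 4, at up to 21.3 and 80.8 CPM. In the 20 captured libraries alone both of these genes left the top 2 for SUT5. With a prior count of 0.5, Sobic.004G227900 left it too.

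**Figure D4:**
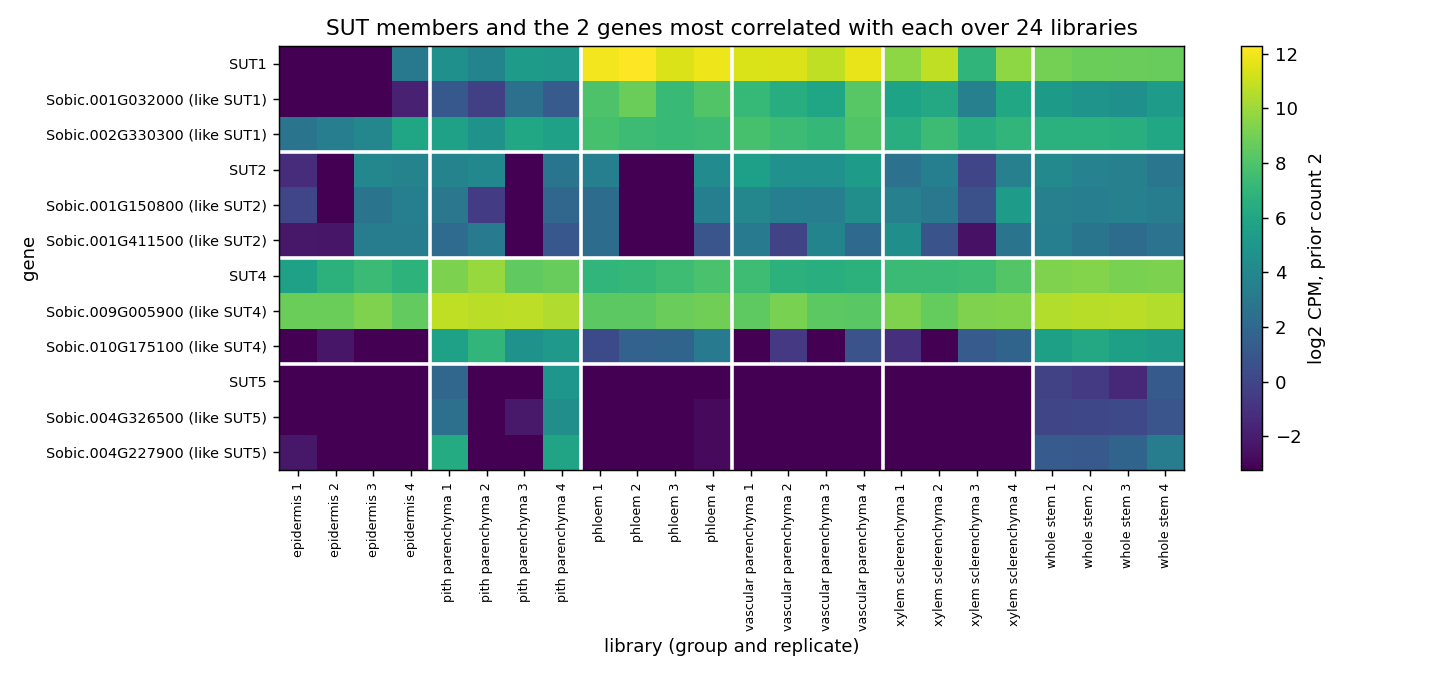
Log2 CPM (colour, prior count of 2) of SUT1, SUT2, SUT4 and SUT5 and of the 2 genes most correlated with each, in the 24 libraries (columns, by group and replicate). SUT1 and its nearest genes are brightest in phloem and vascular parenchyma, SUT4 and its nearest genes in pith parenchyma and whole stem.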

How the data were processed

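RNA-seq libraries (SMART-Seq v4 PLUS, single-end 150 bp reads, per the labels' protocols) were counted per gene by the authors. The deposited values were expected counts, not normalized. Salmon is named in the submitters' processing notes. Its version and index, the build and the gene models were not given in the sources used here. The gene table supplied for lookup matched 0 identifiers, so no sequence, position, length, pathway list or marker list was used, and the pairing of identifiers with SUT names was taken as given. Members and lists were chosen with earlier results of these data known.

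Counts were rounded and tested in R 4.3.3 with edgeR 4.0.16 (filterByExpr, TMM, robust quasi-likelihood F test, Benjamini-Hochberg over all genes tested). Alternatives used limma 3.58.1, DESeq2 1.42.0, other filters and scalings, replicate sets and omissions of single libraries. The steps were also run on simulated counts with known changes in phloem only, and the outcome is not given here. SE was the log2 fold change divided by the square root of F. Named genes were all members and, for members with a mean of at least 1 CPM in a group, the 2 most correlated genes among those with at least 1 CPM in 4 libraries, on log2 CPM with a prior count of 2. The limit of 3 counts covers counting error only, since no molecular identifiers are named.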

Additional observations from a re-analysis of the deposited data

Results flagged for a closer look

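In 26 sets of 4 libraries, each library was compared with the rest of its group for distance from its nearest neighbour, and 3 stood far apart. Some of these sets hold libraries at 0, for which a rate of about 1 in 20 by chance does not hold. The number is therefore not weighed against chance. Epidermis replicate 4 held 8.17 CPM of SUT1 while the other 3 epidermis libraries were at 0. Pith parenchyma replicate 4 held 30.5 CPM of SUT5, against 3.61, 0 and 0 in replicates 1, 2 and 3. Xylem sclerenchyma replicate 4 held 279 CPM of SUT4, above 162, 164 and 178 in the others, and still below the lowest pith parenchyma library, at 362.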

How the results depend on the processing

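The test across the 5 types called 2 of 3 tested transporters. The 10 contrasts between types, with 3 transporters tested in each, held 9 calls. The 5 contrasts with whole stem, with 3 or 4 tested in each, held 9. The share of all genes called under each alternative setting is not given here, so a change in these counts is not read as particular to the transporters. RLE size factors, the stricter filter and the depth set as a covariate gave the same 3 counts. Limma voom lowered the first count to 1. Within replicates 1 and 2 the first count was 1 and the third 4, and within replicates 3 and 4, with 2 libraries a group, all 3 counts were 0. All 18 called log2 fold changes kept their sign in both of these sets. Over omissions of 1 library the first count stayed at 2, the second ran from 6 to 10 and the third from 7 to 11. Without epidermis replicates 1 and 2 and phloem replicate 3 together the counts were 2, 10 and 11. One fit over 24 libraries gave 5 calls against whole stem. With the replicate block these counts were 2, 8 and 5. The calls lost were SUT4 in pith parenchyma minus xylem sclerenchyma (1.49, adjusted p = 0.0605) and, against whole stem, SUT1 in epidermis (-11.83, 0.080) and pith parenchyma (-4.03, 0.0734), SUT2 in vascular parenchyma (1.67, 0.0876) and SUT4 in xylem sclerenchyma (-1.57, 0.0598). Deviations of same-numbered libraries correlated at -0.108 to 0.179 (median 0.00359, 60 pairs), which gives no sign of pairing and does not show that the plants differed, so the numbers were not used to pair samples. No called log2 fold change reversed. Among values not called, SUT4 in epidermis minus vascular parenchyma became 0.19 with limma voom, 0.38 within replicates 3 and 4, 0.18 without the 3 libraries with few detected genes, and ran from -0.61 to 0.060 over omissions of 1 library. SUT4 in phloem minus vascular parenchyma became -0.25 and in pith parenchyma minus whole stem 0.28 within replicates 1 and 2, and the latter ran from -0.37 to 0.094 over omissions. The SUT1 to SUT4 ratio of phloem minus vascular parenchyma ran from -0.13 to 0.26 over omissions. The cause was not tested. RLE moved the median log2 fold change of all genes by -0.148 for epidermis minus phloem. Mean SUT4 in whole stem was 579 CPM with TMM and 554 with RLE library sizes. Shares of each transporter in their sum were not run, because no gene lengths were used.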
